A study of Drosophila melanogaster x Drosophila simulans with 3 samples.

Results

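Exonic regions for which no sequencing read was counted in the heads of interspecific fly hybrids are described here. Of 37568 exonic regions of 200 or more bases, 2901 (7.72%) had a count of 0 in every read class and in every library. These regions are called silent below, a word for their counts and not for their genes. They were chosen by their read counts, so that the counts themselves are a description. They lay beside one another in the order of the region identifiers and were more often single exons than regions of the same length with reads. By the deposited identity they were also less alike between the species than those regions. Against regions with only 1 to 20 reads, the difference in identity had the opposite sign and that in single exons was small. A small number of the silent regions carried a strong deposited coverage signal for the parental strains' references although no read of the hybrids was counted there.

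The flies were virgin F1 females of a cross between D. melanogaster mothers of the strain Berlin and D. simulans fathers of the strain C167.4. They were reared at 25 °C and frozen at an age of 1 to 1.5 days. Each of the 3 libraries was made from polyadenylated RNA of heads from an independent pool of 200 flies, and was read as 54-base paired ends in its own sequencing lane. All 3 libraries form 1 group, with no other genotype, treatment or tissue to set it against. A pool of whole heads mixes brain, eye, antenna, fat and muscle cells, and a transcript present in few cells cannot be told apart from one present at a low level in many.

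A region can have no counted read in such a library for several reasons. Among them are a gene not transcribed in the tissue, RNA without a poly(A) tail and reads that cannot be placed. In flies, many genes are transcribed in the germ line or in larvae alone, and genes expressed in testis tend to sit next to one another on the chromosomes. Females carry no Y chromosome, so that Y-linked genes are not transcribed in them. Aligners commonly leave out reads that match several places equally well, and the exons of repeated genes can then stay empty whatever their expression. Which of these or other reasons applies to a given silent region was not tested. The identifiers were not paired with genes in the sources used here. Neither the head origin of the RNA nor the roles of single regions could therefore be checked by marker genes, and no region sequences are shown.

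Summed over the 10 classes and all exonic regions, 26406916, 26601075 and 29004108 reads were counted in replicates 1, 2 and 3. These are counts in exonic regions and not the sizes of the libraries. A count of 0 over all 82012099 reads allows a level of up to 0.0366 RPM (reads scaled to a common library size), taking 3 counts as the limit, and this limit covers counting error only. Single libraries had more empty regions of 200 or more bases, at 4522, 4436 and 4280, or 11.7% ± 0.327 (SD, n = 3). Silent regions had a median length of 429 bases, with quartiles of 285 and 689, against a median of 500 bases for the 34667 regions with reads. The share of silent regions was 9.36% at 200 to 250 bases, 9.07% at 400 to 600 bases and 2.14% from 2000 bases upward. On the outer side of the length limit, 137 of 1451 regions of 190 to 199 bases (9.44%) were empty, and on the inner side 124 of 1207 regions of 200 to 209 bases (10.3%). Just beyond the count limit, 662 regions had 1 read in all and 815 had 2.

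Silence was then looked at in a library that had not been used to choose the regions. Of the 3354 regions that were empty in replicates 2 and 3, 86.5% were also empty in replicate 1, where 12.0% of all regions of this length were empty. The corresponding values were 84.2% in replicate 2 against 11.8% of all regions, and 82.9% in replicate 3 against 11.4%. The share was thus 84.5% ± 1.81 (SD, n = 3) in the held-out library, against 11.7% of all regions, the silent ones included. The same 2901 regions are counted in each of the 3 shares, so this SD is not a spread of independent outcomes. The regions that did have reads in the held-out library had few. At most 10, 8 and 15 reads were found in replicates 1, 2 and 3, and of the 453 such regions of replicate 1, 175 had 1 read and 199 had 2. Most regions empty in a pair of libraries were thus empty or all but empty in the other.

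The first property compared was sequence identity between the species, given by the authors as a percent for each region. Silent regions were less alike than regions of the same length with reads. Their mean identity was 95.5%, against 96.2% in regions with reads averaged at the lengths of the silent ones, a difference of -0.669 percentage points. When the comparison was made in each library by itself, with the regions empty in that library, the difference was -0.818, -0.803 and -0.803 in replicates 1, 2 and 3, or -0.808 ± 0.00847 (SD, n = 3). All 3 libraries gave the same sign, and a two-sided exact sign test over 3 libraries cannot go below p = 0.25. Identity is the same in every library, and the 3 sets all hold the silent regions. The SD thus describes overlapping sets and not independent replicates, here and for the other properties below. Each set is also larger than that of the silent regions, so its difference need not equal theirs. The median identity was 95.8% with quartiles of 94.2% and 97.1% in silent regions, against 96.5% with quartiles of 95.3% and 97.5% in regions with reads. The authors flagged the C1674 reference as changed for 6.00% of silent regions and 80.8% of those with reads. For the Berlin reference the shares were 2.55% and 52.7%. Identity was not compared within unchanged references, so the part of these changes in the difference was not tested. The silent region with the lowest identity was S17199_SI, with 83.38% identity over 770 bases, whose neighbours by number had 1124 reads and 0 reads.

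The relation with identity had a bend at its upper end. Of the 569 regions with at most 90% identity, 16.3% were silent, and the share fell to 7.97% at 95% to 96% and to 4.45% at 98% to 99%. It was 6.60% from 99% to just under 100%, and 54.3% of the 265 regions with exactly 100% identity. In single libraries the shares of empty regions were 26.8% ± 1.17 in the lowest class, 6.78% ± 0.189 at 98% to 99% and 57.2% ± 0.950 at 100% (SDs over n = 3). Regions with 100% identity made up 4.96% of the silent regions and 0.349% of those with reads. Most of these identical silent regions lay in a few places, 110 of the 144 in the 2 blocks of 1000 identifier numbers described below. Outside these blocks, 34 of 148 identical regions (23.0%) were silent. The coverage signal described below was absent under both names for 108 of the 144 (75.0%), and for 1 of the 121 identical regions with reads. Another region nearby with the same lengths and the same identity existed for 57 of the 144. The C1674 reference was flagged as changed for 0% of these 144 regions and the Berlin reference for 1.39%. How the authors computed identity, and whether before or after the references were changed, is not stated in the sources used here.

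**Figure D1:**
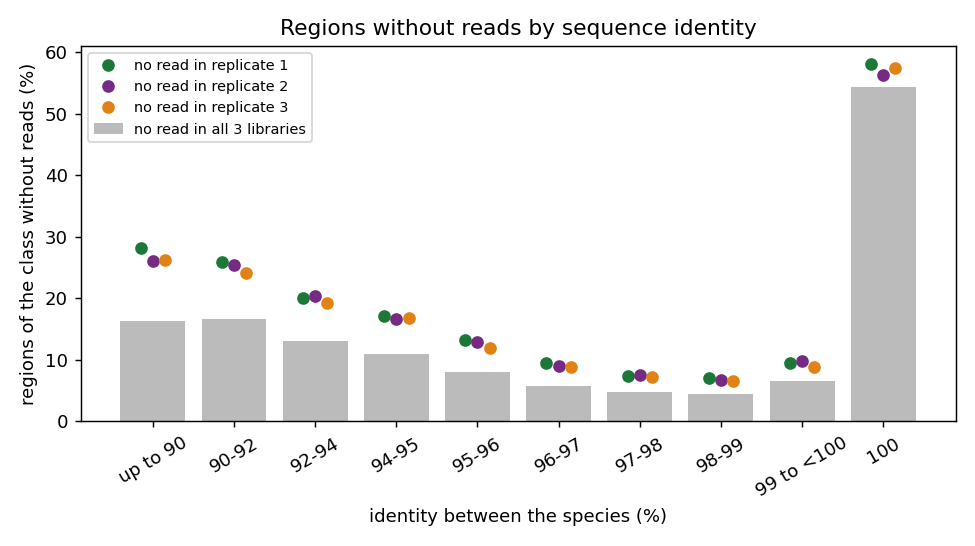
Share of regions of 200 or more bases without reads (y axis, percent) in classes of identity between the species (x axis, percent). Bars are regions empty in all 3 libraries and points are regions empty in each library. The shares fall from 16.3% to 4.45% between the lowest class and 98% to 99%, and reach 54.3% at 100%.

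Regions with very few reads were close to silent ones in median identity, but not at its upper end. The 5007 regions with 1 to 20 reads had a median identity of 95.8% (95.77), as silent regions did (95.80), and the 29660 regions with over 20 reads had 96.6%. Against regions of the same length with 1 to 20 reads, the mean identity of silent regions was higher by 0.106 percentage points. Exactly 100% identity was found for 0.379% of regions with 1 to 20 reads, against the 4.96% of silent regions. The comparison with 1 to 20 reads was added after the data were seen.

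The second property was a difference in length between the strains' references. Only 127 silent regions (4.38%) had unequal lengths, against 27.9% of those with reads. Matched on length, the shares were 4.29% and 23.8%, a difference of -19.5 percentage points, and single libraries gave -20.5, -20.2 and -20.2, or -20.3 ± 0.176 (SD, n = 3). Against regions of the same length with 1 to 20 reads, the difference was only -3.53 points. The authors' files also flag regions whose reference was changed, and such flags were rare in silent regions. The C1674 reference was flagged as changed for 6.00% of silent regions and for 80.8% of those with reads, and the Berlin reference for 2.55% and 52.7%. In regions with no counted change in either reference, 3.91% of 2688 silent regions and 7.31% of 5064 regions with reads differed in length. Within this set the length-matched difference was -4.04 points, against -19.5 over all regions. The share with unequal lengths also rose with the coverage signal among regions with reads, from 4.52% at no signal to 38.9% at 1000 or more. The part of the reference changes in the result was not tested further.

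Where lengths did differ, the silent regions were much like the rest. The difference was a multiple of 3, which keeps a reading frame, in 40 of 127 silent regions (31.5%) and in 31.1% of the 9686 regions with reads. The D. simulans region was the shorter one in 95 of the 127, and in 7730 of the 9686. The median difference was 3 bases in silent regions and in regions with reads, and the largest was 68 bases in silent regions and 58 in the others. The longest silent region, S26352_SI, had 5400 bases in both references, 97.26% identity and neighbours with 7 and 0 reads.

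The third property was the prefix of the identifier. In exon catalogues of this type, F marks a block joined from overlapping exons of different transcripts and S marks a single exon. F regions were scarce among the silent ones, at 186 of 2901 (6.41%) against 15.8% of regions with reads. At equal length the shares were 6.41% and 13.8%, a difference of -7.42 points. Single libraries gave -7.60, -7.77 and -7.34, or -7.57 ± 0.217 (SD, n = 3). Longer regions are more often F, but the deficit was present at every length looked at. Of regions of 200 to 400 bases, 5.24% of F and 9.35% of S regions were silent, from 400 to 1000 bases 3.91% and 9.12%, and from 1000 bases upward 1.42% and 5.17%. Against regions of the same length with 1 to 20 reads the difference was -1.28 points.

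**Figure D2:**
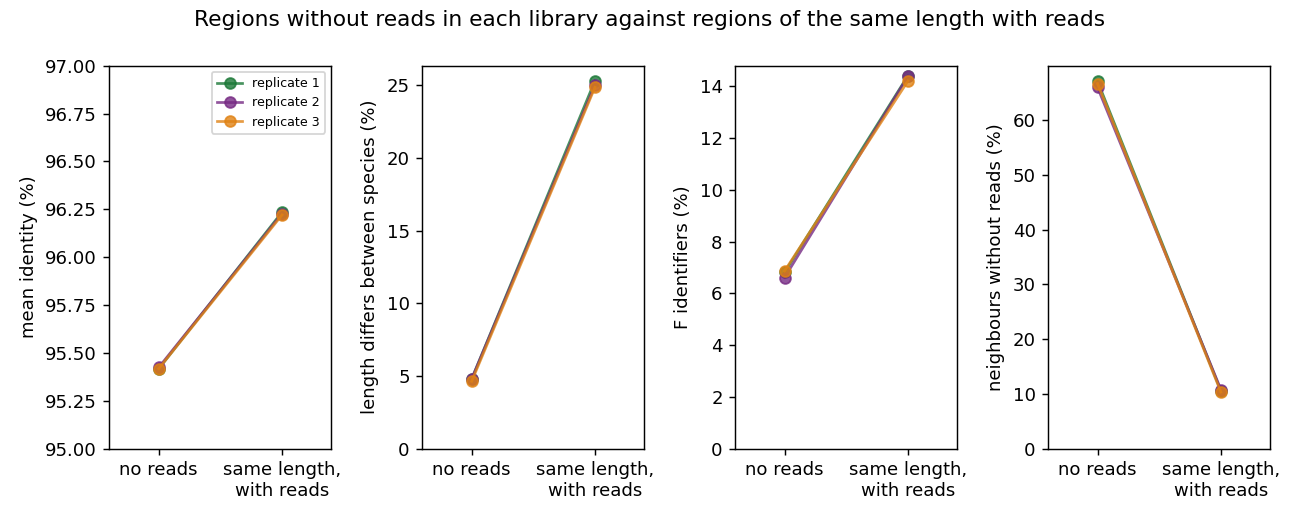
Regions empty in a library against regions of the same length with reads in that library, one line per replicate. The panels give mean identity (axis from 95%), the share with unequal lengths, the share of F identifiers and the share of neighbours without reads, all in percent. The 3 libraries, whose sets of empty regions overlap, nearly coincide in each.

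The fourth property was the place of silent regions in the order of identifier numbers, which run from 1 to 60040 with F and S regions in a single series. Silent regions were strongly clustered. This is a clustering of regions and not of genes. Neighbouring numbers may be exons of the same gene, which could not be told without gene names. The region next to a silent one was itself without reads in 61.9% of cases, against 8.84% beside regions of the same length with reads. The difference of 53.1 points was 56.5, 55.2 and 56.3 in single libraries, or 56.0 ± 0.731 (SD, n = 3). Both neighbours were empty for 1204 silent regions (41.5%), 1 of the 2 for 1183 and neither for 514. Of regions with reads, 2.05% had 2 empty neighbours. Regions with 1 to 20 reads lay between, with 11.1%.

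The reads of the neighbours were also summarised. The less read of the 2 neighbours had a median of 0 reads over the 3 libraries for silent regions, with an upper quartile of 0, and a median of 59 reads for regions with reads. This measure is 0 whenever either neighbour is empty, as for 82.3% of silent regions. It therefore restates the clustering above and is not a second line of evidence. The regions with reads were not matched on length here. In single libraries the medians were 0 in all 3 for silent regions and 20, 21 and 24 for the others in replicates 1, 2 and 3. Where neighbours did have reads, their median allele share was close to that elsewhere, but strong imbalance was more frequent. The median D. melanogaster share over neighbours with at least 20 assigned reads was 52.0% ± 0.240, and 51.6% ± 0.115 over all other regions (SDs over n = 3). Strong imbalance, with a share of at most 20% or at least 80%, was more frequent beside silent regions, at 11.1%, 10.3% and 8.62% in replicates 1, 2 and 3. Elsewhere it was 3.93%, 3.98% and 3.80%, so that the ranges did not overlap. The 3 libraries were compared around the same silent regions, so they are not independent sets of regions. Read depth differed between the neighbours and the other regions, and its part was not tested.

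Silent regions formed long unbroken runs. Counting regions of any length, 8031 had no read, and they fell into 4144 runs. Silent regions of 200 or more bases lay alone between regions with reads in 514 cases, in pairs in 506, in runs of 3 or 4 regions in 693, and in runs of 5 or more in 1188 (41.0%). The 63 runs of 10 or more regions held 537 of them (18.5%). The longest run had 56 regions, beginning with S16585_SI, a fragment of 11 bases. It lay between regions with 13002 and 27 reads, and 16 of its regions had 200 or more bases. Of its 56 regions, 46 had 100% identity. The run with the most silent regions of 200 or more bases held 31 of them among 41 regions. All 41 had 100% identity, their coverage signal was at most 0.32, and the regions that bounded the run had 2387 reads and 1 read.

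**Figure D3:**
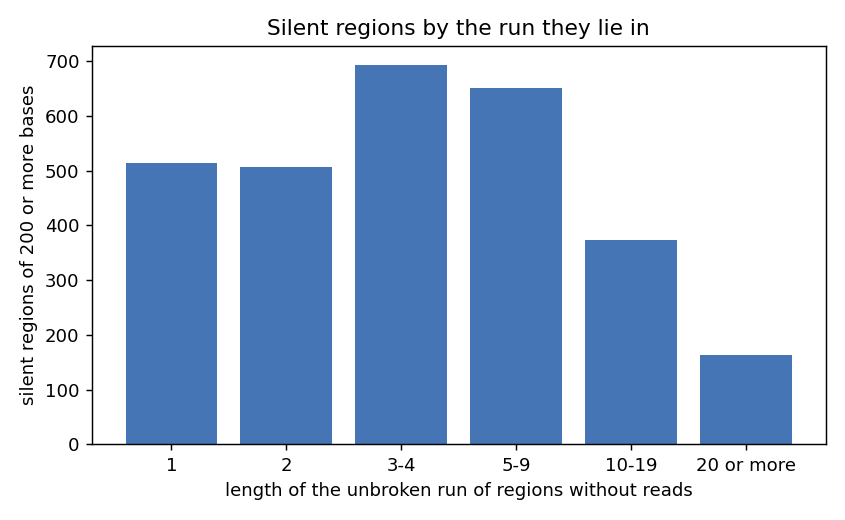
Number of silent regions of 200 or more bases (y axis) by the length of the unbroken run of regions without reads in which they lie (x axis, number of regions of any length). Single regions number 514, and 163 lie in runs of 20 or more.

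Along the identifier numbers the share of silent regions was uneven. Over the 60 full blocks of 1000 numbers it ranged from 1.84% to 20.0%, with a median of 6.54%. The fullest block, 10001 to 11000, held 137 silent regions of 686, and the next, 32001 to 33000, held 118 of 626 (18.8%). Single libraries gave similar values, at 22.9%, 23.2% and 22.3% in the first of these blocks and 22.8%, 23.0% and 22.0% in the second. Without the 2 blocks, the share of silent regions was 7.30% and their neighbours were empty 52.2 points more often than those of the comparison regions. The clustering was thus nearly as large outside them.

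**Figure D4:**
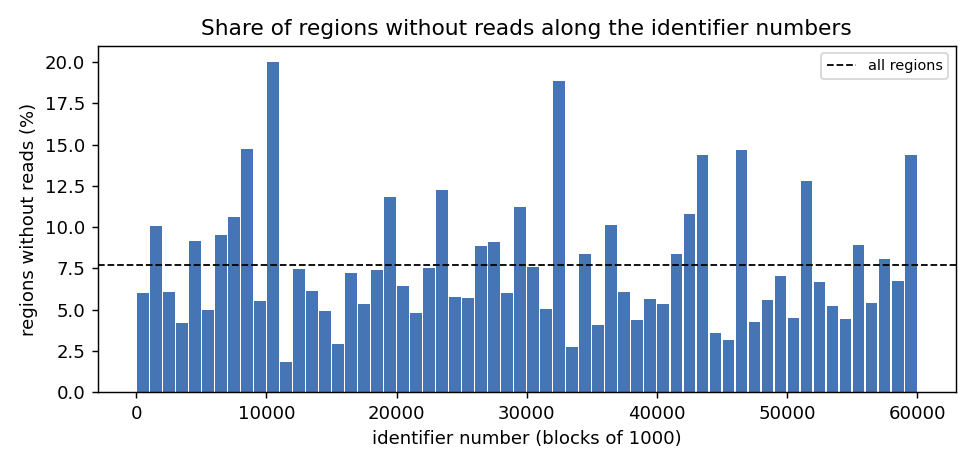
Share of regions of 200 or more bases without reads in all 3 libraries (y axis, percent) in successive blocks of 1000 identifier numbers (x axis). The dashed line marks 7.72% over all regions, and the blocks that begin at 10001 and 32001 reach 20.0% and 18.8%.

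Part of the fullest block was a repeating pattern. From number 10444 to number 10549, 98 of 106 regions (92.5%) were silent, and the most reads in a single region were 67. Regions of 468 bases occurred there 21 times, always 5 numbers apart, and all 21 were silent. Regions of 898 bases recurred at the same step, also 21 times, with 18 silent. Regions of 569 and 555 bases occurred 20 times each, with 18 and 19 silent. The median coverage signal over these 106 regions was 0 and the highest was 30.03.

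Copies of this kind were looked for throughout by a simple sign, another region within 200 numbers with the same length in both references and the same identity. Of silent regions, 223 (7.69%) had such a look-alike, against 1.29% of regions with reads. Seen from the other side, 33.3% of the 670 regions with a look-alike were silent and 7.26% of those without one. At identities below 100%, 27.1% of 613 regions with a look-alike were silent. For 168 of the 223 silent regions, every look-alike was silent too, and for 49 of the 447 regions with reads that had one. Look-alikes lie within 200 numbers of each other, where silent regions cluster in any case. The part of that clustering in these counts was not tested. Without all regions that have a look-alike, 2678 silent regions were left, and the difference in identity was -0.830 points, in F identifiers -8.02 points and in empty neighbours 52.0 points. Each of these differences had the same sign as with the look-alikes.

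The last readout was a coverage signal that the authors gave for each region under the names Berlin and C1674. Its unit and the sample it was measured in are not stated, and it may share reads with the counts that chose the regions. It followed the hybrid reads closely, with Spearman's rho of 0.877 for Berlin and 0.866 for C1674 across 37568 regions, which are not independent replicates. Silent regions had very low signals. The median of the higher of the 2 signals was 0.16, against 46.9 in regions with reads and 1.12 in regions with 1 to 20 reads. No signal under either name was recorded for 801 silent regions (27.6%), and for 0.447% of regions with reads. At equal length the difference was 27.3 points, and single libraries gave 19.7, 20.1 and 20.9, or 20.2 ± 0.599 (SD, n = 3). A signal was given under both names for 986 silent regions, in Berlin alone for 641 and in C1674 alone for 473.

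A few silent regions stood out by a high signal. In 89 of them (3.07%) the higher signal was 10 or more, and in 14 it was 100 or more. Such signals went with reads almost everywhere else. Of the 27256 regions of 200 or more bases with a signal of 10 or more, 0.327% were silent. Among regions under 1000 bases with a signal of 10 to 20, the median was 84 reads, and with a signal of 1000 to 2000 it was 7901 reads. The strongest signal of a silent region was 4109.16 in Berlin and 10738.67 in C1674, over 506 bases with 100% identity. The next had 3599.8 and 9586.86, over 765 bases with 99.74% identity. Replicates 1, 2 and 3 gave 0 reads for each. All 5 silent regions with a signal above 1000 had identities of 99.5% or more and lay in the block of numbers 32001 to 33000.

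These 89 regions also differed from the other silent ones in kind. A look-alike was present for 44 of them (49.4%), against 6.37% of the 2812 silent regions with lower signals and 1.25% of regions with reads and a signal of 10 or more. For 42 of the 44, every look-alike was silent as well. The same held for 35 of the 340 regions with reads, a signal of 10 or more and a look-alike. When successive members at most 100 numbers apart were joined, 82 of the 89 lay in 10 groups of 2 or more, the largest of 17 regions. The same grouping was not made for the other silent regions, so it is not shown to be a difference from them. The median identity of the 89 was 97.3%, above the 95.7% of the other silent regions, and none had 90% or less. Regions with reads and a signal of 10 or more had a median identity of 96.7%, which is nearer to these 89. The C1674 reference was flagged as changed for 75.3% of the 89 and for 3.81% of the other silent regions. For the Berlin reference the shares were 37.1% and 1.46%, and for unequal lengths 11.2% and 4.16%. In regions with reads and a signal of 10 or more, these 3 shares were 89.6%, 59.7% and 32.2%. The part of the look-alikes or of the changed references in the missing reads was not tested.

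**Figure D5:**
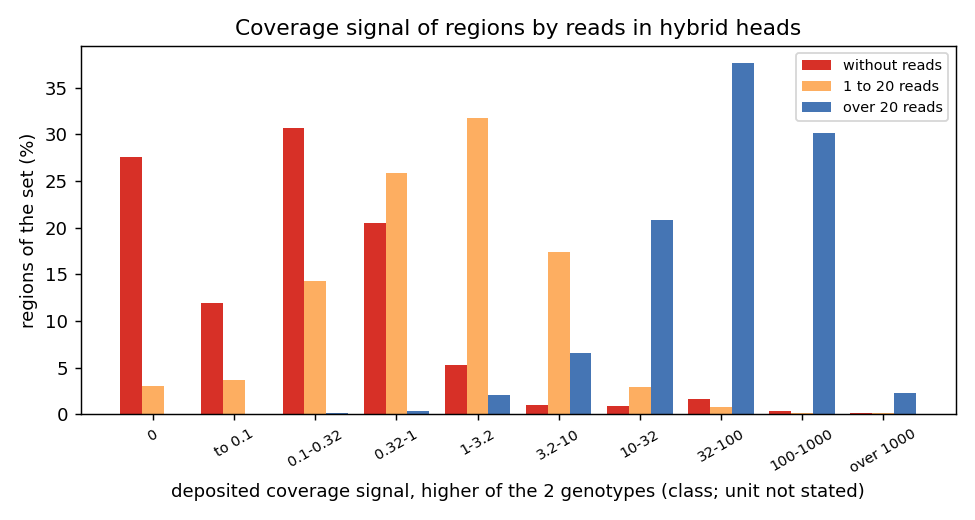
Share of regions (y axis, percent of each set) by class of the deposited coverage signal, the higher of the 2 strains (x axis, unit not stated), for regions without reads, with 1 to 20 reads and with over 20 reads. Most silent regions are at or below 1, and a small group of 89 lies at 10 or more.

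A last group was the reverse of the runs, silent regions with well-read neighbours on both sides. Both neighbours had at least 100 reads for 51 silent regions (1.76%), against 40.9% of regions with reads, and at least 1000 reads for 4. All 51 were S regions, as were most silent regions, of which 6.41% were F. Their median length was 599 bases and 12 had 1000 bases or more, against a median of 429 bases for all silent regions. Their median identity was 95.5% and ranged from 83.94% to 100%, and 4 had at most 90%. The median coverage signal was 0.17, near the 0.16 of all silent regions. It reached 10 or more in 6 of the 51, a larger share than the 89 of all 2901 silent regions, with a maximum of 241.45. Only 1 had a look-alike.

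The extreme of this group was S32503_SI, of 1092 bases in both references and 97.44% identity. Replicates 1, 2 and 3 gave 0, 0 and 0 reads, and its coverage signal was 0.03 in Berlin and 0.43 in C1674. The region numbered before it, of 540 bases, had 16630, 25646 and 6635 reads, and the one after it, of 569 bases, had 70597, 134814 and 26502. The counts of both neighbours were highest in replicate 2 and lowest in replicate 3, although replicate 3 had the most counted reads in all. It lies in the second of the 2 fullest blocks.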

How the data were processed

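Heads of F1 hybrid females were measured in 3 libraries. Raw counts of reads per exonic region in 10 classes of match to the 2 strains' references were deposited by the authors, per the file headers. Percent identity between the species and the numbers and flags of changes in each reference are likewise deposited values. So are the coverage signal per strain and the lengths, per the file headers. These region columns were identical in the 3 tables. Bowtie is listed by the submitters' processing notes without a version. The build, the exon annotation, the treatment of reads with several matches and the unit counted (single reads or pairs) were not given in the sources used here. Reads set aside in placement would lower counts of repeated regions.

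Counts were summed over the 10 classes, with no normalisation. Silent regions had a BERLIN_LENGTH of at least 200 and a sum of 0. Traits were compared with regions of exactly the same length with reads, averaged at the lengths of the silent regions; 13 silent regions had no such partner. The rule was also applied to each library, giving mean ± SD. The 3 sets overlap, so this SD is not a spread between independent replicates. Regions are not replicates, so no test over regions was made. Regions printed by identifier were the longest, the least identical, the one with the most-read neighbours and the first of the longest run. The matching was tested on simulated data. Python 3.11.15, pandas 2.3.3 and numpy 2.4.6 were used. The members and comparisons were chosen with earlier results of these data known.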

Additional observations from a re-analysis of the deposited data

How the results depend on the processing

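Differences are silent minus comparison regions, in percentage points. Over the planned and added settings, 38 values stayed within the SD between libraries or, for counts of regions, within 1.5 times, 60 did not, and 1 changed sign. That SD comes from overlapping sets of regions, so staying within it is not a measure of replication. Of the 38 values, 8 were the median reads of neighbours, which was 0 in every setting, and 8 were counts of regions. For identity 1 value stayed, 12 did not and 1 changed sign, and for unequal lengths 1 stayed and 14 did not. No paired analysis was possible because the 3 libraries form 1 group and no result comes from a test. Without 1 replicate in turn, the number of silent regions was 3354 to 3498, the difference in identity -0.731 to -0.725, in unequal lengths -19.9 to -19.8, in F identifiers -7.77 to -7.36, in empty neighbours 53.6 to 55.5 and in absent coverage 23.9 to 25.0. Values below keep this order. A minimum of 100 bases gave 4869 regions and -0.882, -13.3, -4.93, 52.2 and 31.5. A minimum of 500 bases gave 1207 regions and -0.437, -27.3, -11.4 and, for coverage, 23.9. Allele-assigned classes alone gave -0.426, -19.2, -6.94, 49.3 and 25.4. At most 2 reads gave 4378 regions, -0.836, -20.5, -7.66, 60.1 and 21.2, and 76.6% empty in the held-out library. Length classes of 25 bases gave -0.693 and -19.9, and no matching gave -0.679, -23.6 and -9.37. Comparison regions with at least 20 reads gave -0.818, -22.1, -8.32 and 56.4. For empty neighbours, neighbours of 200 or more bases gave 46.1 and 5 on each side 39.1. Of the settings added after the data were seen, comparison regions with 1 to 20 reads gave 0.106, the opposite sign for identity, and -3.53, -1.28, 35.0 and 25.5. Without look-alikes the values were -0.830, -19.9, -8.02, 52.0 and 26.0, and without the 2 fullest blocks -0.958, -19.1, 52.2 for neighbours and 24.9 for coverage. Regions with unchanged references gave -4.04 for unequal lengths. The cause of these shifts was not tested. Depth limits what silent means, since 1477 further regions had 1 or 2 reads.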

Other observations

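The longest run without reads held a second repeating pattern. Regions of 65, 501 and 41 bases followed each other in this order 9 times between numbers 16596 and 16631. All 27 regions had 0 reads, 100% identity and no coverage signal in either strain. In the BDGP6 annotation, whose build may not be that of the authors, 3 consecutive exons of these lengths occur in 9 genes, all of them Stellate (Ste) genes on the X chromosome. Stellate is a tandemly repeated gene family of D. melanogaster known for its activity in testis. The match is one of lengths and order alone, and the deposited tables do not tie these regions to any gene. Whether they are Stellate exons was not tested.

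Just above 0, regions with a total of 2 reads over the 3 libraries outnumbered those with 1. Among regions of 200 or more bases, 662 had a total of 1 read, 815 had 2, 415 had 3, 431 had 4 and 312 had 5. The order was not the same in each library. Among regions empty in the other 2 libraries, 175 had 1 read and 199 had 2 in replicate 1, 217 and 231 in replicate 2, and 270 and 231 in replicate 3.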
